A study of Mus musculus with 5 samples.

Results

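Nuclei of interscapular brown adipose tissue (iBAT) that carried the highest share of RNA from 5 genes of fatty acid metabolism, Acly, Acaca, Elovl6, Fasn and Ehhadh, were examined within the single-nuclei RNA-sequencing (snRNAseq) data of 3-month-old mice. They numbered 2735 of 13673 adipocyte nuclei, in a matrix of 20307 barcodes and a series of 50307. Adipocyte nuclei were gated as barcodes with at least 1000 UMIs (unique molecular identifiers, each standing for a captured RNA molecule), with at least 0.8% of UMIs in 8 adipocyte genes (Adipoq, Plin1, Plin4, Lipe, Pparg, Cidec, Pnpla2 and Acsl1) and with at most 2 UMIs summed over 9 genes of other cell types (Ptprc, Mrc1, Flt1, Cyyr1, Pdgfra, Abcc9, Ttn, Skap1 and Cadm2). Within each library the top 20% of gated nuclei by the percent of UMIs in the 5 genes were called lipogenic, and the remaining 10938 gated nuclei served as the comparison. The matrix pools a library of control mice (WT, labelled littermate control; the study names mice with Ucp1-Cre+/- or with STX4 fl/fl as its WT, without saying which were used for snRNAseq) and a library of Ucp1-STX4KO mice (Ucp1-Cre+/- with STX4 fl/fl, in which the Ucp1 promoter drives Cre in brown adipocytes), both 3 months of age. A second matrix holds 3 libraries, from C57BL/6J mice of 2, 12 and 24 months, and served as a set of libraries that the choice of nuclei in the first matrix did not use. Nuclei were sorted by flow cytometry, the methods give 4 male mice without their division among libraries, and each condition has 1 library. Within a matrix the libraries are told apart only by the suffix of their barcodes, which nothing ties to a genotype or an age. WT and Ucp1-STX4KO nuclei were therefore not compared, no test across mice was possible, and every interval below is a 95% interval for counting error only.

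De novo lipogenesis builds fatty acids from carbohydrate carbon. Citrate leaves the mitochondrion and is split by ATP citrate lyase (Acly) into acetyl-CoA, acetyl-CoA carboxylase (Acaca) makes malonyl-CoA, fatty acid synthase (Fasn) assembles palmitate, and Elovl6 lengthens it. Brown fat is known for running this pathway beside fatty acid oxidation, with transcription under the control of SREBP-1c and ChREBP, the products of Srebf1 and Mlxipl. Ehhadh stands apart from the other 4 genes by function, since it encodes the bifunctional enzyme of peroxisomal beta-oxidation.

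The libraries differed before any nuclei were chosen. Their barcodes held 76195924 UMIs with suffix 1 and 39857819 with suffix 2. Gated nuclei made up 86.7% of the barcodes with suffix 1 (9709 of 11201) and 43.5% of those with suffix 2 (3964 of 9106). Lipogenic nuclei were deeper than the others, with medians of 7118.5 against 5975 UMIs with suffix 1 (1942 and 7767 nuclei) and 6380 against 5029 UMIs with suffix 2 (793 and 3171 nuclei). A choice of the top 20% within each of 10 bins of depth gave 12 of the other lipogenesis genes described below as higher, against 10 with the choice used here. The limits given in the methods for barcodes (200 to 2000 UMIs and 100 to 3000 genes) would leave 0 of the lipogenic nuclei with suffix 1 and 28 with suffix 2, and were not applied. In all, 23 barcode sequences occurred with both suffixes. No doublets were removed, and leaving out the 8% of gated nuclei with the most UMIs gave 10 as well.

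The cut divided nuclei of nearly equal score. The median gated nucleus had 0.396% of its UMIs in the 5 genes with suffix 1 and 0.299% with suffix 2. The lowest lipogenic nucleus and the highest of the others stood at 0.7058% and 0.7056% with suffix 1, and at 0.6294% and 0.6293% with suffix 2. In total, 983 nuclei (10.1% of those gated) with suffix 1 and 238 (6.00%) with suffix 2 lay within 10% of the cut. The lipogenic nuclei are a range of this score set by the cut, and whether they form a type of their own was not tested. The range reached further with suffix 2 (up to 4.97%) than with suffix 1 (up to 2.64%).

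**Figure D1:**
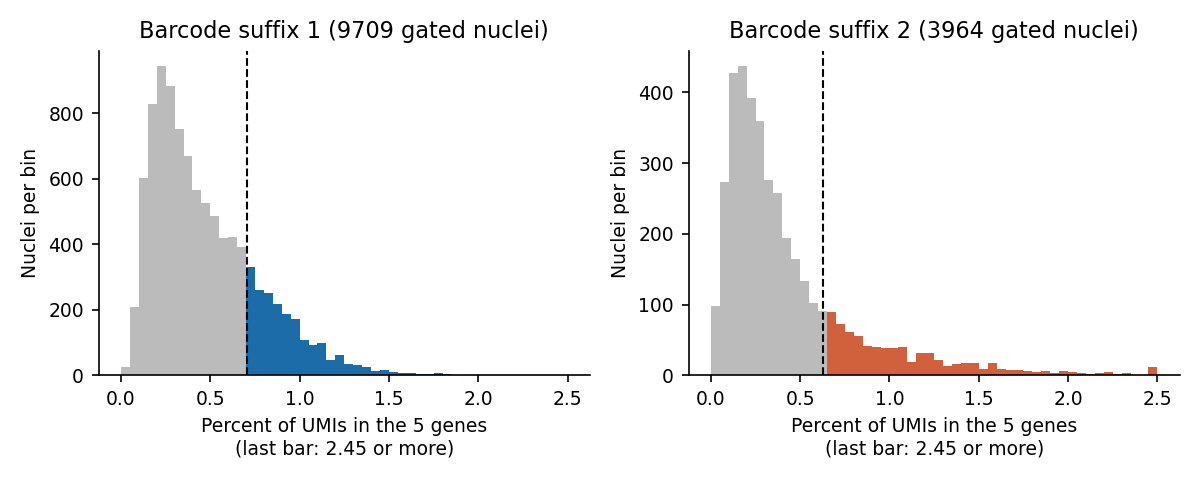
Number of gated nuclei (vertical axis) by the percent of their UMIs in the 5 genes (horizontal axis, bins of 0.05), for each barcode suffix. The dashed line is the cut, coloured bars are lipogenic nuclei and the last bar gathers all nuclei beyond the axis. Counts fall without a gap at the cut of 0.706% with suffix 1 and 0.629% with suffix 2.

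The promoters of Acly and Fasn, which were higher together in the data below, and of Ehhadh, which was on both sides of 1, are shown for the 250 bases before the RefSeq start (GRCm38.p6). Capitals mark, on either strand, CCAAT (known to be bound by NF-Y), the GC box GGGCGG (bound by Sp1) and the sterol element TCACNCCAC (bound by SREBP proteins). The E-box CACGTG was searched as well and was in none of the 3.
Acly, chr11:100528001-100528250, minus strand: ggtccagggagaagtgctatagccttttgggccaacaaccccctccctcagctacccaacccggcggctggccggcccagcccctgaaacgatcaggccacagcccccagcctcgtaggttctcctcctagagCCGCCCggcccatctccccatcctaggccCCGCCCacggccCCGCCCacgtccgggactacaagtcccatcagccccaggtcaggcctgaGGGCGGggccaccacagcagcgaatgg
Fasn, chr11:120824548-120824797, minus strand: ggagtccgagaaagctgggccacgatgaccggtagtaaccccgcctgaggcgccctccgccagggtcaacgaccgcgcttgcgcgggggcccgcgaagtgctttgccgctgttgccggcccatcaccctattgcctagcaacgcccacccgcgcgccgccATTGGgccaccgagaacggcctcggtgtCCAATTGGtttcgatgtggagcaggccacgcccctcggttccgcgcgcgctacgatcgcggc
Ehhadh, chr16:21787835-21788084, minus strand: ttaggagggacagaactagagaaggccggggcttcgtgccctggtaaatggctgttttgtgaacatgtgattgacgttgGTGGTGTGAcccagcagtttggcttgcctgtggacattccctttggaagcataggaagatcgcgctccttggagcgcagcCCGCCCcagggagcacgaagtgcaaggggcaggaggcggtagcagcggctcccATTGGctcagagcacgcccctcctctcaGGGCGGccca
The Acly window held 4 GC boxes and no CCAAT. The Fasn window held 3 CCAAT, of which a pair overlaps on opposite strands, and no GC box. The Ehhadh window held 1 CCAAT, 2 GC boxes and 1 sterol element. Over 32851 promoter windows of this length, 33.8% held CCAAT, 32.7% a GC box, 1.05% a sterol element and 6.02% an E-box. The matches describe letters in these windows only.

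The 5 genes chose the nuclei, so their levels are a description. Levels are given as CPM, the UMIs of a gene per 1000000 UMIs summed over the nuclei of a group, and a ratio is the CPM of lipogenic over other nuclei. Acly, the citrate-splitting enzyme, stood at 649 CPM in lipogenic against 205 in other nuclei with suffix 1 and 515 against 59.6 with suffix 2. Acaca stood at 5153 CPM in lipogenic against 1761 in other nuclei with suffix 1 and 7702 against 1512 with suffix 2, and Fasn at 1084 CPM in lipogenic against 452 in other nuclei with suffix 1 and 678 against 145 with suffix 2. Both Acly and Fasn were at lower levels with suffix 2 than with suffix 1, in lipogenic and in other nuclei. Elovl6 stood at 1615 CPM in lipogenic against 662 in other nuclei with suffix 1 and 1697 against 699 with suffix 2, and Ehhadh at 984 CPM in lipogenic against 599 in other nuclei with suffix 1 and 419 against 343 with suffix 2. Acaca supplied 54.3% of the UMIs of the score in lipogenic nuclei with suffix 1 and 69.9% with suffix 2, so the choice rested on it more than on any other of the 5 genes. All 5 genes were detected in 80.4% of lipogenic nuclei with suffix 1 (41.9% of the others) and in 34.3% with suffix 2 (6.15% of the others). The part of depth and of free RNA in detection was not tested. In nuclei of other cell types (at least 10 UMIs of the 9 excluded genes and under 0.8% in the adipocyte genes), Acly was detected in 40.5% of 215 nuclei with suffix 1 (median 3270 UMIs) and in 17.6% of 720 nuclei with suffix 2 (median 3662 UMIs). The shares were 90.8% (89.4 to 92.0) and 70.7% (67.4 to 73.9) in lipogenic nuclei, and 61.3% and 24.1% in the other gated nuclei.

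To describe how the 5 genes went together, each was left out in turn and the top 20% were chosen by the other 4. The 5 genes were themselves chosen with earlier results of these data known. Their ratios in the 3-month libraries are therefore no independent evidence that they go together. Acly, Acaca, Elovl6 and Fasn were each higher in nuclei chosen without them, in all 5 libraries. The CPM ratio of chosen over other nuclei was 2.76 (2.69 to 2.84) with suffix 1 and 7.30 (6.83 to 7.81) with suffix 2 for Acly and 2.07 (2.03 to 2.11) with suffix 1 and 4.21 (4.01 to 4.42) with suffix 2 for Fasn. It was 1.88 (1.86 to 1.90) with suffix 1 and 2.05 (2.02 to 2.08) with suffix 2 for Acaca and 1.77 (1.74 to 1.80) with suffix 1 and 1.66 (1.62 to 1.71) with suffix 2 for Elovl6. The ratios of Acly and Fasn were larger with suffix 2, as a description of these 2 libraries, since the intervals hold no spread between libraries or mice. In the libraries of the aging matrix, with 111, 100 and 34 chosen nuclei, the ratio ranged from 2.92 to 5.21 for Acly, from 2.38 to 3.30 for Acaca, from 1.99 to 3.46 for Elovl6 and from 1.97 to 5.36 for Fasn. Every one of these 12 ratios had an interval above 1.

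Ehhadh lay on both sides of 1 in nuclei chosen by the other 4 genes together. They had an Ehhadh ratio of 1.13 (1.11 to 1.16) with suffix 1 and 0.764 (0.725 to 0.806) with suffix 2. In the aging matrix it was 0.614 (0.449 to 0.825), 1.19 (0.922 to 1.52) and 1.66 (0.697 to 3.68), on both sides of 1. Nuclei chosen by Ehhadh alone had Acly at a ratio of 1.12 and Fasn at 1.05 with suffix 1, and at 0.620 and 0.790 with suffix 2. Nuclei chosen by Acaca alone had Acly at 2.69 and 7.68 and Fasn at 2.08 and 4.58. With Elovl6, in contrast, Ehhadh was above 1 with both suffixes of the 3-month matrix, at 1.29 and 1.19 in nuclei chosen by Elovl6 alone. Elovl6 was at 1.29 and 1.07 there in nuclei chosen by Ehhadh alone. In the aging matrix Ehhadh was at 0.967, 0.906 and 1.97 in nuclei chosen by Elovl6 alone. Elovl6 was at 1.07, 0.824 and 1.07 in aging nuclei chosen by Ehhadh alone. All of these aging intervals spanned 1.

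**Figure D2:**
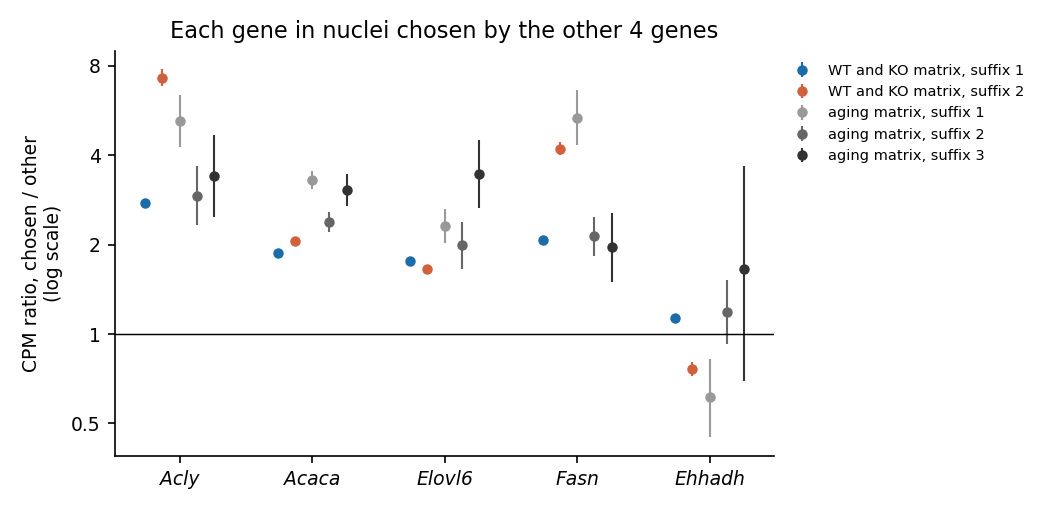
CPM ratio of chosen over other gated nuclei (vertical axis, log scale) for each of the 5 genes in nuclei chosen by the other 4, in the 2 libraries of the 3-month matrix (colours) and the 3 libraries of the aging matrix (greys). Points are ratios and bars 95% intervals for counting error. Acly, Acaca, Elovl6 and Fasn lie above 1 in all 5 libraries, and Ehhadh lies on both sides of 1.

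Genes outside the score were compared between lipogenic and other nuclei, and a gene was called lower where its CPM ratio was at most 0.8 with both suffixes, and higher where it was at least the reciprocal of 0.8 with both. This is a call by size. Among 8112 genes with at least 200 UMIs over the gated nuclei of each suffix, 107 were higher, which is 1.32%, and 355 were lower, which is 4.38%. With suffix 1 alone, 4.01% passed the fold upward and 10.3% downward, and with suffix 2 these were 5.31% and 18.7%. The median ratio of all genes tested was 0.972 with suffix 1 and 0.928 with suffix 2 (log2 -0.04 and -0.11), and dividing by it gave 158 genes higher and 215 lower. A further 1.28% of genes passed the fold in opposite directions with the 2 suffixes, and the ranks of the ratios were only weakly alike between libraries (Spearman's rho 0.215 across genes, which are not independent replicates and of which the 5 score genes were no part).

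The other genes of de novo lipogenesis were higher as a group. Of the 16 of 20 listed genes with enough UMIs, 10 were higher and none was lower, against 1.32% of all genes, and all 16 lay above 1 with both suffixes. Their median ratio was 1.43 with suffix 1 and 1.69 with suffix 2. The list had been drawn up with earlier results of these data known, so it is no independent evidence of direction. The genes too low to count were Mid1ip1, Fads1, Fads2 and Mcat.

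Enzymes that supply acetyl-CoA and citrate to the pathway were higher with both suffixes. Acss2, which makes acetyl-CoA from acetate, stood at 910.0 CPM in lipogenic against 430.4 in other nuclei with suffix 1 and 578 against 189 with suffix 2, a ratio of 2.11 (2.07 to 2.16) with suffix 1 and 3.06 (2.92 to 3.21) with suffix 2. Its gene (ENSMUSG00000027605) lies at chr2:155517948-155585724 on the plus strand and is overlapped on the minus strand by Gss, a glutathione synthesis gene that was also called higher (ratios 1.68 with suffix 1 and 1.55 with suffix 2). The study names Cell Ranger for counting and gives no strand setting. The part of the shared stretch in either ratio was not tested. Slc25a1, the mitochondrial citrate carrier, stood at 37.3 CPM in lipogenic against 24.8 in other nuclei with suffix 1 and 31.2 against 18.7 with suffix 2, and Aacs, which activates acetoacetate for lipid synthesis, at 348 CPM in lipogenic against 184 in other nuclei with suffix 1 and 190.0 against 111 with suffix 2. The ratios were 1.51 and 1.67 for Slc25a1 and 1.89 and 1.71 for Aacs.

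Enzymes that supply NADPH, the reductant of fatty acid synthesis, were called in part. Malic enzyme Me1 stood at 218 CPM in lipogenic against 134 in other nuclei with suffix 1 and 1267 against 332 with suffix 2, a ratio of 1.63 (1.56 to 1.70) with suffix 1 and 3.82 (3.69 to 3.95) with suffix 2. With suffix 2 both sets of nuclei carried more Me1, and the separation was wider than with suffix 1. Tkt, the transketolase of the pentose phosphate pathway, had ratios of 1.52 and 2.90, and Pgd, which makes NADPH in that pathway, 1.44 and 1.51. G6pdx, the entry enzyme of the same pathway, was not called, at 1.02 and 1.37, and neither was Idh1, the cytosolic isocitrate dehydrogenase, at 1.15 and 1.30.

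Enzymes that modify the product were split in the same way. Scd2, a stearoyl-CoA desaturase, had ratios of 1.91 and 2.36, while Scd1, the main adipose desaturase, had 1.21 and 2.01 and missed the call with suffix 1. Scd1 stood at 1360.0 CPM in lipogenic against 1124 in other nuclei with suffix 1 and 801 against 399 with suffix 2. In nuclei of other cell types it stood at 1241 CPM with suffix 1, above the level of the other gated nuclei of that library, and at 270.2 CPM with suffix 2. Elovl5, an elongase of polyunsaturated fatty acids, had ratios of 1.42 and 1.89. The elongation partners Hsd17b12, at 1.18 and 1.46, and Tecr, at 1.34 and 1.17, were not called. Pnpla3, a lipase of lipid droplets and a known target of SREBP-1c and ChREBP, stood at 1043 CPM in lipogenic against 578 in other nuclei with suffix 1 and 307 against 202 with suffix 2, and its direction with suffix 2 turned (ratio 0.920) when Acaca was left out of the score. Thrsp (Spot 14), a marker of lipogenic activity, stood at 441 CPM in lipogenic against 319 in other nuclei with suffix 1 and 359 against 155 with suffix 2 and was higher with both suffixes. Acacb, the mitochondrial carboxylase whose malonyl-CoA restrains carnitine palmitoyltransferase, had ratios of 1.18 and 1.34 and was not called.

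**Figure D3:**
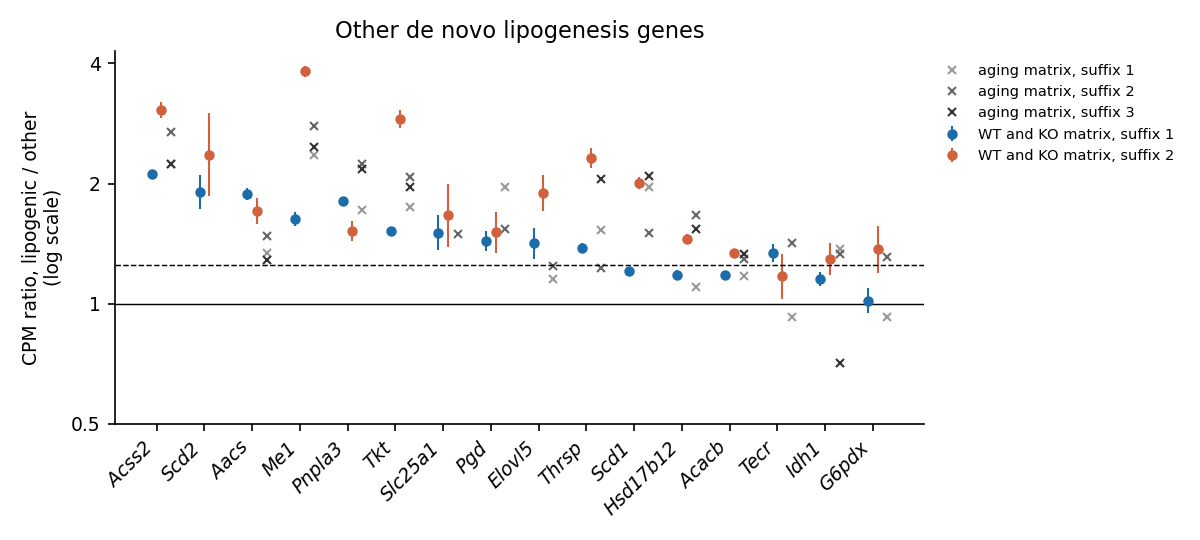
CPM ratio of lipogenic over other gated nuclei (vertical axis, log scale) for the 16 other de novo lipogenesis genes with enough UMIs. Coloured points are the libraries of the 3-month matrix with 95% intervals for counting error, crosses are libraries of the aging matrix with at least 50 UMIs of the gene, and the dashed line is the fold needed for a call. All coloured points lie above 1, and 10 genes have both of theirs above the dashed line.

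The libraries of the aging matrix gave the same direction for most of these genes. The same gate and cut gave 111 of 557, 100 of 498 and 34 of 170 nuclei there, with 99 barcode sequences in more than 1 library. The gate kept only 5.57%, 4.98% and 1.7% of the 10000 barcodes of each library, against 86.7% and 43.5% in the 3-month matrix. The chosen nuclei were also shallower, with medians of 2383, 2413.5 and 2645 UMIs. Of the listed genes with at least 50 UMIs, 12 of 14, 15 of 15 and 9 of 10 lay above 1, where 47.3%, 50.2% and 49.7% of all genes did. Acss2 had ratios of 2.24, 2.69 and 2.24 and Me1 of 2.36, 2.79 and 2.47. Tkt had ratios of 1.74, 2.08 and 1.97 and Pnpla3 of 1.72, 2.24 and 2.17. For these 4 genes every aging library passed the fold. Genes called from the 3-month matrix kept their side in most cases too, with 49 of 57, 52 of 57 and 25 of 27 higher genes above 1, and 127 of 165, 103 of 131 and 38 of 53 lower genes below 1.

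Of 22 regulators of the pathway tested, 1 was higher and none was lower, against 1.32% and 4.38% of all genes, so the counts say nothing particular to regulators. The gene called was Insig1, which retains SREBP in the endoplasmic reticulum and is itself an SREBP target, at 168 CPM in lipogenic against 97.3 in other nuclei with suffix 1 and 104 against 43.0 with suffix 2 (ratios 1.72 and 2.42). Mlxipl, encoding ChREBP, stood at 2019.7 CPM in lipogenic against 1621 in other nuclei with suffix 1 and 1228 against 786 with suffix 2, with a ratio just under the fold in one library and above it in the other (1.246 (1.23 to 1.26) with suffix 1 and 1.56 (1.52 to 1.61) with suffix 2). Srebf1 RNA, which does not report the processed protein, had ratios of 1.19 (1.11 to 1.28) with suffix 1 and 1.16 (1.05 to 1.29) with suffix 2. Both ratios were below the fold needed for a call, with intervals above 1. The insulin signalling genes Insr, at 0.998 and 0.916, and Akt2, at 0.999 and 1.05, lay near 1. Irs1, the insulin receptor substrate, had ratios of 1.02 and 1.47, and Irs2 1.27 and 0.820, which are opposite in order. Foxo1, a transcription factor that insulin excludes from the nucleus, had 0.770 and 0.897, below 0.8 with suffix 1 only.

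Sterol synthesis, which SREBP-2 controls in common knowledge, was called in part. Of 9 of 18 genes tested, 4 were higher, against 1.32% of all genes, and none was lower. Nsdhl, which removes the sterol methyl groups, stood at 101 CPM in lipogenic against 50.5 in other nuclei with suffix 1 and 62.6 against 37.7 with suffix 2, and Cyp51, the lanosterol demethylase, at 17.8 CPM in lipogenic against 11.5 in other nuclei with suffix 1 and 29.7 against 14.7 with suffix 2. Sc5d, a sterol desaturase, had ratios of 1.49 and 1.95 and Pmvk, a kinase of the mevalonate pathway, 1.31 and 2.31. Hmgcs1, an early enzyme of the mevalonate pathway, lay on both sides of 1, at 0.887 and 1.19.

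Lists of genes that handle finished fatty acids each held genes called higher, where 1.32% of all genes were. Of 12 triglyceride synthesis genes, 2 were higher, Agpat2, which makes phosphatidic acid, at 1.34 and 1.55, and Lpin1, the next phosphatase, at 1.26 and 1.27. Of 15 uptake genes 3 were higher, among them the fatty acid binding and activating genes Fabp5, at 1.42 and 1.75, and Acsl5, at 1.49 and 1.27. Of 13 droplet and lipolysis genes 1 was higher, the droplet coat gene Plin2, at 1.28 and 1.30. Of 4 elongation and desaturation genes of restricted tissue range 1 was higher, Elovl3, known for cold-exposed brown fat, at 1.93 and 1.26. None of the genes tested in these lists was lower with both suffixes, where 4.38% of all genes were. In lists of this size, the counts of 1 and the absence of lower genes are near the background. Ratios of at most 0.8 were held by 3 triglyceride, 0 uptake, 2 droplet and 2 elongation genes with suffix 1. With suffix 2 these counts were 1, 3, 2 and 0. The adipocyte genes of the gate, which had to be present in all nuclei compared, lay between 0.733 and 1.15 with suffix 1 and between 0.863 and 1.253 with suffix 2.

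Among genes of carbohydrate carbon, those called included the mitochondrial entry of pyruvate. Of 18 pyruvate and citrate genes 2 were higher, where 1.32% of all genes were. Mpc1, a subunit of the mitochondrial pyruvate carrier, stood at 644 CPM in lipogenic against 476 in other nuclei with suffix 1 and 855 against 592 with suffix 2, and Pdha1, of pyruvate dehydrogenase, at 176 CPM in lipogenic against 136 in other nuclei with suffix 1 and 238 against 119 with suffix 2. Of 18 glucose uptake and glycolysis genes 1 was higher, Eno1, at 1.29 and 1.55, and Hk2, the insulin-responsive hexokinase, missed the call with suffix 2 at 1.28 and 1.203. None of the genes of either list was lower, where 4.38% of all genes were. In lists of this size, the glycolysis count and the absence of lower genes are near the background.

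None of 17 mitochondrial and none of 15 peroxisomal oxidation genes was higher or lower. With 1.32% and 4.38% of all genes called, counts of 0 in lists of this size are near the background. Hadhb, of the trifunctional protein, had ratios of 1.16 and 1.04, and Cpt1a, of the carnitine shuttle, 0.831 and 0.783. Acaa2, the mitochondrial thiolase, had 0.919 and 0.677, below 0.8 with suffix 2 only. Hsd17b4, the other bifunctional enzyme of peroxisomes, had 1.08 and 1.21.

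Thermogenic genes were present in lipogenic nuclei, with a median ratio to other adipocyte nuclei of 0.956 with suffix 1 and 0.943 with suffix 2. Ucp1, the uncoupling protein that defines brown adipocytes, stood at 1058 CPM in lipogenic against 1022 in other nuclei with suffix 1 and 798 against 844 with suffix 2, ratios of 1.04 (1.02 to 1.05) with suffix 1 and 0.945 (0.915 to 0.976) with suffix 2. In nuclei of other cell types Ucp1 stood at 435.6 CPM with suffix 1 and 182.3 CPM with suffix 2. Of 16 thermogenic genes tested none was higher and 1 was lower, Esrrg, an estrogen-related receptor of oxidative metabolism, at 1537 CPM in lipogenic against 1959 in other nuclei with suffix 1 and 963 against 1302 with suffix 2. With 4.38% of all genes lower, this count is near the background, and the Esrrg ratio with suffix 2 was 1.44 when Acaca was left out of the score. Ppargc1a, the coactivator PGC-1 alpha, was lower with suffix 1 only, at 556 CPM in lipogenic against 846 in other nuclei with suffix 1 and 11258 against 11973 with suffix 2 (ratios 0.657 and 0.940). Its level differed far more between libraries than between nuclei of a library. Dio2, which activates thyroid hormone, had ratios of 1.01 and 1.40. Kcnk3, a potassium channel, had 1.08 and 1.005, and Ebf2, a brown fat determination factor, 0.858 and 0.998.

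Thermogenic genes and the score were related differently in the 2 libraries when gated nuclei were ordered by score into 10 bins of equal size, of which bins 9 and 10 hold the lipogenic nuclei. With suffix 1, Ppargc1a was lower in each successive bin, from 1036 CPM in bin 1 to 527 CPM in bin 10, while Ucp1 stayed between 974 and 1064 CPM. With suffix 2 both were highest at intermediate scores. Ucp1 went from 511 CPM in bin 1 to 1114 in bin 6 and 676 in bin 10, and Ppargc1a from 6962 to 15168 in bin 8 and 9075 in bin 10. Not all thermogenic genes followed this course, since Dio2 went from 415 CPM in bin 1 to 763 in bin 9 and 772 in bin 10. Esrrg went from 1369.6 CPM in bin 9 of suffix 2 to 587 in bin 10, and Ppara, a nuclear receptor for fatty acids, from 3218 to 1602 CPM. The lipogenic nuclei of suffix 2 were thus not alike among themselves. From bin 9 to bin 10, Me1 went from 615 to 1873 CPM and Acss2 from 378 to 764 CPM while Acacb went from 1648 to 1620.2 CPM and G6pdx from 54.5 to 52.3 CPM. Some lipogenic enzymes were thus higher in bin 10 and others were not. With suffix 1, Me1 went from 177 to 258 CPM and Esrrg from 1610.0 to 1466 CPM over the same bins.

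With suffix 2 the ratios of Ucp1 and Ppargc1a depended on which of the 5 genes chose the nuclei. Nuclei chosen by Elovl6 alone had Ucp1 at a ratio of 1.69 and Ppargc1a at 1.56, and those chosen by Fasn alone had 0.726 and 0.663. With suffix 1 the same choices gave Ucp1 at 1.03 and 1.02 and Ppargc1a at 0.760 and 0.740. When Acaca was left out of the score, the Ppara ratio with suffix 2 turned from 0.776 to 1.17, as the Esrrg ratio did. Acss2 and Me1 kept their direction in that setting, at 2.52 and 2.33 with suffix 2.

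**Figure D4:**
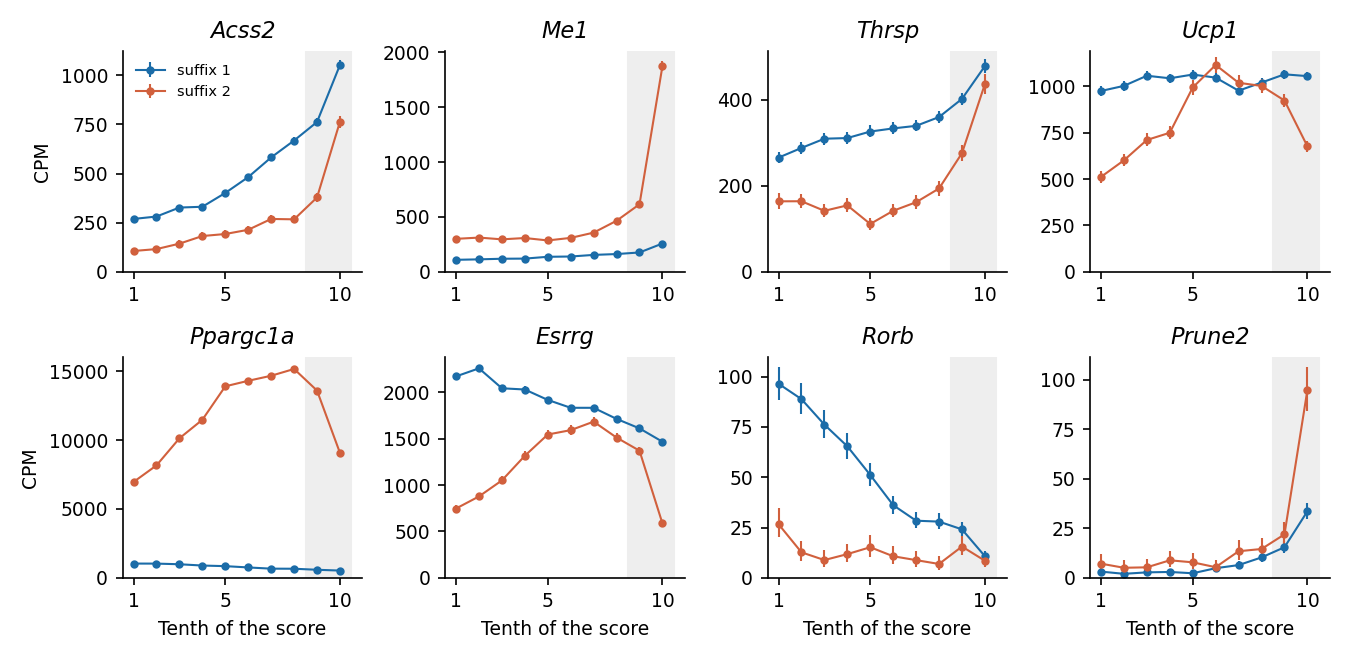
CPM (vertical axes, starting at 0) of 8 genes over 10 bins of the score, from the lowest (1) to the highest (10), for suffix 1 and suffix 2. Bars are 95% intervals for counting error and shading marks bins 9 and 10, the lipogenic nuclei. Acss2, Me1, Thrsp and Prune2 are highest in bin 10 of both suffixes, Rorb is lower at each higher score with suffix 1, and Ucp1, Ppargc1a and Esrrg are highest at intermediate scores with suffix 2.

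Genes of other adipocyte states differed between the libraries. Rorb, a retinoid-related orphan receptor, stood at 17.3 CPM in lipogenic against 56.5 in other nuclei with suffix 1 and 11.9 against 12.4 with suffix 2, so it was lower in lipogenic nuclei with suffix 1 (ratio 0.306, 0.269 to 0.348) and without a detectable difference with suffix 2 (ratio 0.955, 0.720 to 1.252). Of 7 white-like adipocyte genes tested 2 were lower and none was higher, where 4.38% and 1.32% of all genes were. Nnat, neuronatin, stood at 31.6 CPM in lipogenic against 50.1 in other nuclei with suffix 1 and 51.1 against 267 with suffix 2, and Aldh1a1, a retinaldehyde dehydrogenase, at 2.53 CPM in lipogenic against 3.87 in other nuclei with suffix 1 and 31.7 against 66.2 with suffix 2. With nuclei limited to those without markers of other cell types, the Aldh1a1 ratio with suffix 2 was 1.79, with an interval (0.873 to 3.52) that spanned 1. Of 8 hypoxia response genes tested none passed the call with both suffixes. The summed level of all 12 listed hypoxia genes was higher in lipogenic nuclei with suffix 1 (ratio 1.251) and lower with suffix 2 (0.785). P4ha1, a collagen hydroxylase that hypoxia induces, had ratios of 1.60 and 0.750. Of 16 clock genes 1 was higher and 1 was lower, the latter Hlf, at 0.592 and 0.715. In lists of this size, the hypoxia and clock counts and the 1 fasting gene below are near the shares over all genes. Of 9 fasting genes 1 was higher, Ppp1r3b, a glycogen-targeting subunit of protein phosphatase that insulin induces in liver, at 495 CPM in lipogenic against 305 in other nuclei with suffix 1 and 141 against 70.8 with suffix 2.

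The targeted gene Stx4a, encoding syntaxin 4, stood at 58.0 CPM in lipogenic against 60.7 in other nuclei with suffix 1 and 50.7 against 48.6 with suffix 2. It had ratios of 0.956 (0.886 to 1.03) with suffix 1 and 1.04 (0.912 to 1.19) with suffix 2 in lipogenic nuclei, and both intervals spanned 1. None of 9 pyroptosis genes had enough UMIs to be tested singly. Their summed level was 10.8 against 13.9 CPM with suffix 1 and 23.1 against 29.1 CPM with suffix 2, ratios of 0.779 (0.653 to 0.924) and 0.793 (0.653 to 0.959). The summed macrophage markers had ratios of 0.799 (0.745 to 0.857) and 0.859 (0.792 to 0.930), and their part in the pyroptosis sum was not tested. Pycard, the inflammasome adaptor, gave most of the UMIs with suffix 1 and Casp4 the most with suffix 2. Casp1, which cleaves gasdermin D, had 2 UMIs in lipogenic nuclei with suffix 1 and 19 with suffix 2.

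Over all genes, those ranked highest by the library nearer to 1 were mostly outside known lipogenesis. Prune2 led, at 24.6 CPM in lipogenic against 4.56 in other nuclei with suffix 1 and 60.04 against 8.45 with suffix 2 (ratios 5.40 (4.58 to 6.39) with suffix 1 and 7.10 (5.88 to 8.62) with suffix 2). It stood at 183.2 CPM with suffix 1 and 51.2 CPM with suffix 2 in nuclei of other cell types, so its UMIs were not particular to adipocytes, and the part of those nuclei in its ratio was not tested. Kit, the stem cell factor receptor, stood at 47.7 CPM in lipogenic against 20.2 in other nuclei with suffix 1 and 20.01 against 4.78 with suffix 2. Sorl1, a sorting receptor, had ratios of 2.67 and 3.73, and Marc1, a mitochondrial reductase, 2.38 and 3.02. Fam57b, of ceramide synthesis, had 1.90 and 2.86, Dixdc1 2.12 and 2.32 and Sbk1 1.79 and 1.92, and the noncoding Gm31508 1.89 and 1.98. Acss2, Scd2 and Ttc25 were in this list as well.

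Ttc25 had ratios of 4.09 and 10.6, and its gene lies at chr11:100545607-100572568, 17607 bases from Acly (chr11:100476353-100528000) on the opposite strand. Ccdc57, 1982 bases from Fasn on the same strand, was also called higher (ratios 1.63 with suffix 1 and 2.12 with suffix 2). Tada2a, 72 bases from Acaca, was not (ratios 0.849 with suffix 1 and 0.9996 with suffix 2). Of 5 genes tested within 20 kb of a score gene, Ttc25 and Ccdc57 were the ones called, and leaving out such genes gave 105 higher and 355 lower genes. These neighbours, and Gss and Pmvk above, were named after their values were seen. Whether reads from the score genes reach these neighbours was not tested.

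Receptors, channels and transporters were among the 12 genes ranked lowest. Cntfr, the ciliary neurotrophic factor receptor, stood at 27.02 CPM in lipogenic against 84.4 in other nuclei with suffix 1 and 30.02 against 118 with suffix 2, and Dock11, a guanine nucleotide exchange factor, at 1.60 CPM in lipogenic against 5.18 in other nuclei with suffix 1 and 137 against 282 with suffix 2. Sgk2, a kinase related to serum and glucocorticoid kinase, had ratios of 0.221 and 0.228 and Kcnc2, a potassium channel, 0.238 and 0.290. Slc2a3, the glucose transporter GLUT3, stood at 5.79 CPM in lipogenic against 18.9 in other nuclei with suffix 1 and 5.597 against 19.9 with suffix 2, with a ratio of 1.08 (0.354 to 2.78) with suffix 2 when nuclei with markers of other cell types were left out, and Slc7a8, an amino acid transporter, had ratios of 0.451 and 0.483. Kirrel, Mapre2, Sema5a, Map7d3, Palm and Gm17167 made up the rest, with ratios between 0.173 and 0.508 over both suffixes. In the aging libraries the Cntfr ratio was 0.307, 0.449 and 0.366, on 4, 8 and 4 UMIs in the chosen nuclei, with an interval that reached 1.02 in the last.

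**Figure D5:**
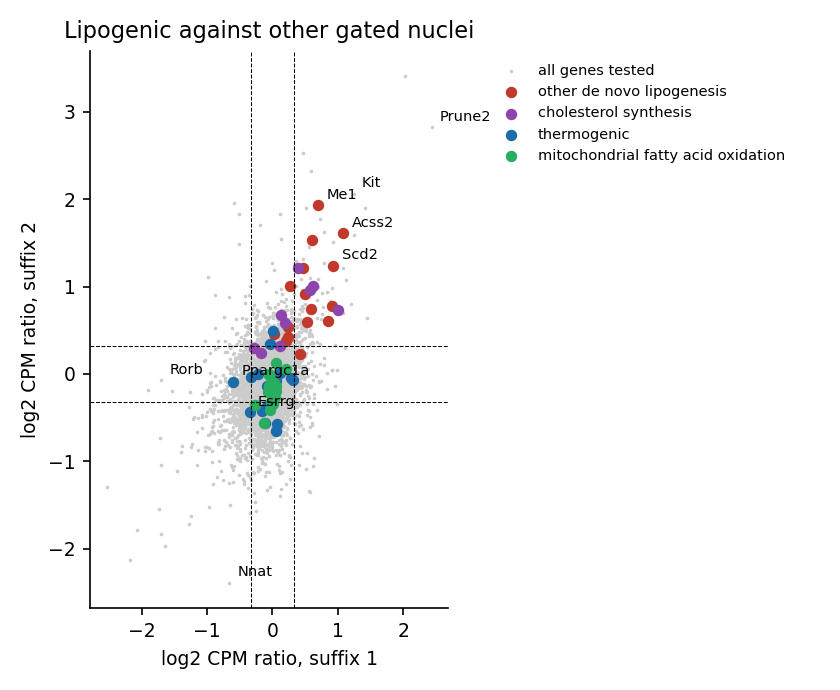
log2 CPM ratio of lipogenic over other gated nuclei with suffix 1 (horizontal axis) and suffix 2 (vertical axis) for the 8112 genes tested, with 4 gene lists in colour. Dashed lines mark the fold needed for a call, either way. Most other de novo lipogenesis genes lie in the upper right, where 1.32% of all genes do, and oxidation genes lie near the centre.

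Signals of other cell types were low in lipogenic nuclei. The summed level of 57 marker genes of 7 other cell types was 0.0232% of UMIs in lipogenic and 0.0247% in other nuclei with suffix 1, and 0.0488% and 0.0569% with suffix 2. Of the 7 lists, 6 had a summed ratio below 1 with both suffixes, from 0.767 to 0.939 with suffix 1 and from 0.540 to 0.859 with suffix 2, and the exception was Schwann or nerve markers, at 1.101 and 0.925. In lipogenic nuclei the macrophage list summed to 975 UMIs with suffix 1 and 766 with suffix 2, of which Rbpj, a Notch pathway gene, gave 677 and 463, and the Schwann or nerve list to 1614 and 1244, of which Mbp, of myelin, gave 1143 and 685. Other markers were low, with Cd163 of macrophages at 4 and 5 UMIs, Sox10 of Schwann cells at 0 and 1, and Vwf of endothelium at 1 and 4. Myh4 of muscle had 0 UMIs with suffix 1 and 29 with suffix 2, and Acta2 of mural cells and Pax5 of B cells were at 0 with suffix 2. With gated nuclei limited to those with none of these markers, 9 of the other lipogenesis genes had enough UMIs and 6 were higher. Of all 1922 genes tested in that setting, 2.03% were higher. The share of mitochondrial UMIs was 0.191% against 0.211% with suffix 1 and 0.0488% against 0.0602% with suffix 2, and Malat1, a nuclear RNA, took 5.91% against 5.597% and 6.65% against 6.56%. The part of these shares in the results was not tested.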

How the data were processed

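Nuclei of iBAT were profiled with 10x Genomics 3' snRNAseq in 5 samples, deposited as 2 matrices. The deposited matrices hold untransformed UMI counts, made by the authors with Cell Ranger 6.1.2 on mm10, for which the methods give a forced number of cells. Neither their sctransform normalisation in Seurat 4.1.0 nor the barcode limits of their methods are part of these counts. Those limits would leave 0 of 11201 barcodes with suffix 1 and 2763 of 9106 with suffix 2. Whether barcodes were cut in another way before deposit is not stated. All columns were used. Lipogenic and other gated nuclei were compared as summed UMI counts within each barcode suffix in pandas 2.3.3, scipy 1.17.1 and numpy 2.4.6 under Python 3.11.15. CPM have exact Poisson intervals, ratios exact conditional binomial intervals and shares Clopper-Pearson intervals, all at 95%. With 1 library per condition and no map from suffix to sample there was no test. Calls were by size among genes with at least 200 UMIs per suffix. Doublets were not called or removed. The members and lists were chosen with earlier results of these data known. All genes of the lipogenesis, regulator and thermogenic lists could be named, of other lists up to 3 highest and 3 lowest, and over all genes the 12 highest and 12 lowest by the suffix nearer to 1. Promoters came from RefSeq (GRCm38.p6), which matched the 5 score genes. The scripts were tested on simulated data. Alternatives changed the cut, gate, score, depth, scaling, gene filter and fold. Some genes of these lists are not reported here.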

Additional observations from a re-analysis of the deposited data

How the results depend on the processing

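The count of other lipogenesis genes called higher (10) lay between 7 and 13 in the alternatives, except for 6 of 9 tested when nuclei with any other-type marker were left out, an alternative chosen after seeing the data, as was leaving out genes near the score genes. The counts over all genes (107 higher, 355 lower) depended on filter and fold. They were 36 and 92 after thinning to 1000 UMIs per nucleus, 217 and 757 with at least 50 UMIs per gene, 1009 and 3180 with at least 1 UMI, 35 and 71 at a fold of 1.5, 553 and 1668 with suffixes pooled, and 39 and 41 without other-type markers, where fewer genes were tested. Lower genes numbered 215 after division by the median ratio and 192 with UMIs split between choice and measurement. Leaving Acaca out of the score gave 95 higher genes, of which 53 were shared with the 107. Thermogenic genes called lower (1) became 2 with the top 10%, at least 50 UMIs, at least 1 UMI or pooled suffixes, and 0 with the top 30%, median scaling, mean ranks, a score without Acaca, split UMIs or a fold of 1.5. The smallest ratios of genes left out of the choice moved from 2.76 to 2.65 (split UMIs) and 2.92 (aging matrix) for Acly, from 1.88 to 1.80 and 2.38 for Acaca, and in the aging matrix from 1.66 to 1.99 for Elovl6, 2.07 to 1.97 for Fasn and 0.764 to 0.614 for Ehhadh. With suffix 2 the direction turned without Acaca in the score for Pnpla3 (0.920), Esrrg (1.44) and Ppara (1.17), and without other-type markers for Slc2a3 (1.08, 0.354 to 2.78) and Aldh1a1 (1.79, 0.873 to 3.52), whose intervals span 1. Over 58 genes and 23 alternatives (2668 ratios), these were the 5 that turned among ratios past the fold in the main choice. A ratio nearer to 1 that crossed it was not counted as turned. Alternatives that changed only the fold or the genes kept could not move a ratio. Beyond construction, the cause was not tested. No paired analysis was possible because the suffixes carry no replicate number and each condition has 1 library. Depth limited the pyroptosis genes, none of which had enough UMIs.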
